A study of Homo sapiens with 4 samples.

Results

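Overlapping opposite-strand gene pairs are protein-coding genes whose coordinate spans share at least 1 base with another protein-coding gene on the other strand of the same chromosome. The rule used the coordinates of the expression table alone and no measured value, but how the table's rows were chosen is not given. It found 1760 genes in 923 pairs, which is 12.6% of the 13934 protein-coding rows in a table of 16692 rows. Of these genes, 1678 had 1 such partner, 78 had 2 and 4 had 3. The pairs were sorted by how they meet. In 454 tail-to-tail pairs the 3′ ends overlapped, in 277 head-to-head pairs the 5′ ends overlapped, and in 192 nested pairs 1 gene lay within the span of the other. The shared stretch had a median of 605 bases and a range of 1 to 281370 bases. Its median was 495 bases in tail-to-tail pairs, 336 in head-to-head pairs and 3245.5 in nested pairs. The spans run from the first to the last base of a gene and include introns, so a shared stretch need not be exonic in either gene. At the edge of the rule, GNL3 and GLT8D1 shared 1 base and were members, and ZYX and EPHA1 abutted without sharing a base and were not.

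Ribosome footprints and RNA reads were sequenced from SNU-668, a long-established line of human gastric cancer cells. There were 4 libraries with 1 in each group: footprints and RNA of cells transfected with shRNA against ALKBH3, and footprints and RNA of cells transfected with control shRNA, whose genotype label is WT. All 4 came from cells that the series text calls erastin-resistant, erastin being an inducer of ferroptosis, while the library names carry RLS3, which the labels do not expand. With 1 library per group every comparison is between libraries and has no replicate check. Each 95% interval of a log2 ratio or a share of reads covers counting error only, PCR copies included as if they were separate molecules. The 95% intervals of shares of pairs take pairs as independent draws, although some genes sit in more than 1 pair.

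The knockdown-labelled and control libraries held 3742513 and 3795680 footprint reads, and 689375 and 554075 RNA reads. ALKBH3, the demethylase gene targeted by the shRNA, had 22 footprints in the knockdown-labelled library and 14 in the control library, with 0 RNA reads in both. The counts therefore do not bear out the knockdown label, and the libraries are called by their labels throughout. All 4 mesenchymal markers had footprints in both libraries: VIM had 16521 in the knockdown-labelled and 23326 in the control library, FN1 had 25647 and 20180, CDH2 had 2768 and 2058, and COL1A1 had 663 and 1001 in the same order. Of the epithelial markers, KRT18 had 538 footprints in the knockdown-labelled and 462 in the control library, KRT8 had 15 and 17 footprints but 511 and 208 RNA reads, and EPCAM, KRT19 and CLDN4 had at most 8 footprints in either. The stomach marker CLDN18 had no footprints, with 17 RNA reads in the knockdown-labelled and 5 in the control library. In RNA and the same order, CLDN4 had 57 and 32 reads and KRT18 had 36 and 13, with 0 for EPCAM and KRT19. VIM had 104 and 47 RNA reads, FN1 65 and 22, COL1A1 9 and 2, and CDH2 3 and 4.

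Genes on opposite strands can overlap where transcription runs past or begins within a neighbour. Tail-to-tail partners can have complementary 3′ ends, and head-to-head partners often start from a shared bidirectional promoter, commonly rich in CG dinucleotides. An mRNA that is being translated carries ribosomes, and the fragment each ribosome covers is read as a footprint. RNA reads tell members apart in a shared stretch only if the library keeps strand and the counting uses it, and neither is given in the sources used here. RNA reads assigned to either member of an overlapping pair are uncertain to that extent.

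Start regions of 2 head-to-head pairs are printed because the RNA reads of SMC4 and IFT80 fell on the footprint-poor gene and those of DUS4L and COG5 on the footprint-rich gene. SMC4, which encodes a condensin subunit that compacts chromosomes, faces IFT80, which encodes a protein of intraflagellar transport in cilia. COG5, which encodes a subunit of a Golgi tethering complex, faces DUS4L, a gene of the tRNA dihydrouridine synthase family. Each window is RefSeq sequence of GRCh38.p14, 300 bases from 250 before to 50 after the annotated start, 5′ to 3′ on the gene's own strand. Capitals mark the bases that both windows of a pair cover. The SMC4 window is chr3:160399400-160399699 on the plus strand and the IFT80 window is chr3:160399176-160399475 on the minus strand, with 76 shared bases. The DUS4L window is chr7:107563721-107564020 on the plus strand and the COG5 window is chr7:107563871-107564170 on the minus strand, with 150 shared bases. The shared bases lie upstream of both annotated starts in the SMC4 and IFT80 windows, and include both starts in the DUS4L and COG5 windows. RefSeq starts need not match the ends of the deposited hg19 spans, from which the overlaps of 229 and 557 bases were taken.
SMC4: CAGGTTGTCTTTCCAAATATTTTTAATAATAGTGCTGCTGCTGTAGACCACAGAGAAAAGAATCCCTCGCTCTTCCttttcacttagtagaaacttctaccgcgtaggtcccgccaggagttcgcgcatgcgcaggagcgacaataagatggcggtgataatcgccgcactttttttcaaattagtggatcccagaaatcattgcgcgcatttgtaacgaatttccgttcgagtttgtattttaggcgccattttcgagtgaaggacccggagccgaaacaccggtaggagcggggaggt
IFT80: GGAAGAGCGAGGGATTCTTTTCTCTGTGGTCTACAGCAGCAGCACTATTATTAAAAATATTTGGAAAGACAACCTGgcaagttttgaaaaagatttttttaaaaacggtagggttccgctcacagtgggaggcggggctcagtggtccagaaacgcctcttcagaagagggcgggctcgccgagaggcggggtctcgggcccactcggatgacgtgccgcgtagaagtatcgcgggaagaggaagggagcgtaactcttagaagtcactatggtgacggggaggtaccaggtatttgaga
DUS4L: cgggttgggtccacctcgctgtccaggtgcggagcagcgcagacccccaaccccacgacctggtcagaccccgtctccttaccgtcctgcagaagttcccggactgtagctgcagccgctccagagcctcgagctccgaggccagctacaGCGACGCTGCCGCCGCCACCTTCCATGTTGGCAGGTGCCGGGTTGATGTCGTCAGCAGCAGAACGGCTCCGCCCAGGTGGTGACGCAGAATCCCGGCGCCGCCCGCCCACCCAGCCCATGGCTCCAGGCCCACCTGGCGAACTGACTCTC
COG5: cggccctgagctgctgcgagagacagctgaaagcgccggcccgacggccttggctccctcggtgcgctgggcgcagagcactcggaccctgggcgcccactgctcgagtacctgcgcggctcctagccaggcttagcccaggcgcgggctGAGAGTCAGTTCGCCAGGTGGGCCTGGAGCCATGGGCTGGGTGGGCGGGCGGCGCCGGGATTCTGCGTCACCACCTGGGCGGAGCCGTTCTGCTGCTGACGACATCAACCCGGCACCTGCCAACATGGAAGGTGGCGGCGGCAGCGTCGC
SMC4 had 1539 footprints and 10 RNA reads in the knockdown-labelled libraries, and 1412 footprints and 6 RNA reads in the control libraries. IFT80 had 85 footprints and 3366 RNA reads in the knockdown-labelled libraries, and 71 footprints and 2909 RNA reads in the control libraries. In this pair the footprints and the RNA reads thus lay on opposite genes in both conditions. COG5 had 616 footprints and 290 RNA reads in the knockdown-labelled libraries, and 457 footprints and 244 RNA reads in the control libraries. DUS4L had no footprints in either library and 3 RNA reads in the knockdown-labelled and 4 in the control library, so both assays favoured COG5.

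Of the 277 head-to-head pairs, 208 had a RefSeq window for both members, and in 115 of those pairs (55.3%) the windows shared bases. Windows shared bases in 4 of 76 nested pairs and in 0 of 288 tail-to-tail pairs. The median GC content of the start windows was 63.7% in head-to-head, 66.3% in tail-to-tail and 64.2% in nested pairs, against 58.3% over all 27305 windows in the table. CG dinucleotides had medians of 25, 27 and 22.5 per window in the same order, against 14 over all windows. The TATA-box core TATAAA, the CAAT-box core CCAAT and the motif CCGGAAGT were searched on both strands. CCGGAAGT, which is bound by factors of the ETS family, occurred in 15.2% of head-to-head, 10.1% of tail-to-tail and 6.25% of nested windows, against 4.43% of all windows. TATAAA occurred in 4.34%, 6.12% and 9.17% of these windows in turn, against 11.9% of all windows, and CCAAT in 29.5%, 36.3% and 32.9%, against 35.7%. Windows that overlap hold the same motif match on both sides, so head-to-head members are not independent in these shares. The 27305 windows were not limited to protein-coding genes or to genes of the expression table. Windows of unpaired protein-coding genes were not counted apart, so these differences need not be particular to paired genes.

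The paired genes held a far larger part of the RNA reads than of the footprints. In the knockdown-labelled library 60.8% of the RNA reads of protein-coding rows (229625 reads) were assigned to them, and in the control library 62.8% (178842 reads). Their part of the footprints was 10.3% in both libraries, with 386044 footprints in the knockdown-labelled and 392445 in the control library. BEST1, a chloride channel gene best known in retinal pigment epithelium, alone held 30.4% of the paired genes' RNA reads in the knockdown-labelled library and 24.9% in the control library. Without it, the paired genes still held 51.9% of protein-coding RNA reads in the knockdown-labelled library and 55.9% in the control library. The higher RNA share was not confined to BEST1. The median paired gene had 8 RNA reads in the knockdown-labelled and 4 in the control library, and the median of the other protein-coding rows was 1 and 0 in the same libraries. In RNA, 16.02% of paired genes were at 0 in the knockdown-labelled library and 26.4% in the control library, against 44.2% and 58.5% of the other protein-coding rows. In footprints the order was reversed: 21.5% of paired genes were at 0 in the knockdown-labelled library and 21.99% in the control library, against 11.7% and 12.4% of the other protein-coding rows. Some genes, such as CDH1 and HBB, have no row at all. If a row needed a read in some library, genes without footprints are listed only through their RNA reads. The shares at 0 in the 2 assays would then depend on each other, which was not tested.

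To see which member of a pair each assay favoured, pairs with at least 100 footprints and 20 RNA reads in a condition were taken, which left 386 pairs in the knockdown-labelled libraries and 332 in the control libraries. A member with at least 75% of the pair's footprints was called footprint-rich, and 299 pairs in the knockdown-labelled and 251 in the control libraries had one. A pair was called opposed where that member held at most 25% of the pair's RNA reads, aligned where it held at least 75%, and mixed otherwise. These shares describe where reads were assigned and not levels per length. In the knockdown-labelled libraries 173 of 299 pairs were opposed (57.9%, Wilson 95% interval 52.2 to 63.3) and 60 were aligned (20.1%). In the control libraries 154 of 251 were opposed (61.4%, 55.2 to 67.2) and 51 were aligned (20.3%). In most classed pairs, then, the gene with the footprints was not the gene with the RNA reads. Of 235 pairs classed in both conditions, 211 kept their class, 135 of them opposed, 40 aligned and 36 mixed, and 0 turned between opposed and aligned. Both conditions thus gave the same picture pair by pair.

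**Figure D1:**
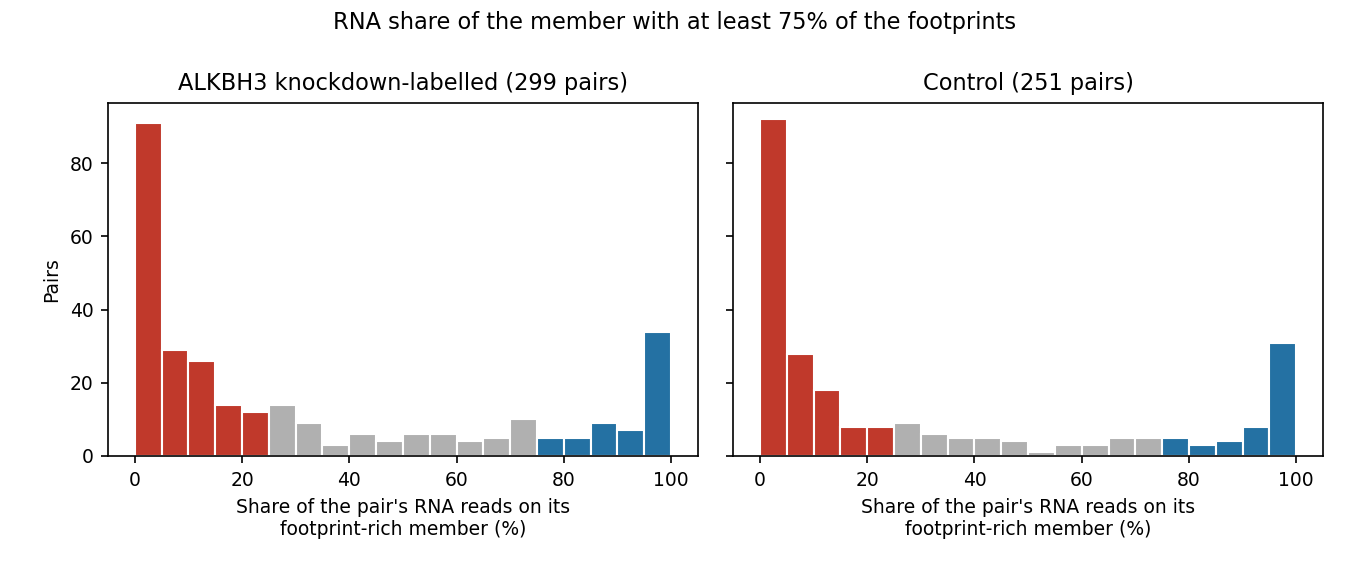
Number of pairs (vertical axis) by the share of the pair's RNA reads on its footprint-rich member (horizontal axis, %), knockdown-labelled libraries on the left and control libraries on the right. Bars pile up at both ends, with red bars at the low end (opposed: 173 and 154 pairs), blue bars at the high end (aligned: 60 and 51 pairs) and grey bars for mixed pairs.

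Summed over the 173 opposed pairs of the knockdown-labelled libraries, the footprint-rich members held 159629 footprints and 2910 RNA reads, and the footprint-poor members held 3159 footprints and 82204 RNA reads. In the 154 opposed pairs of the control libraries the footprint-rich members held 161161 footprints and 1959 RNA reads, and the footprint-poor members 3350 footprints and 67764 RNA reads. A typical footprint-rich member of an opposed pair had 372 footprints and 6 RNA reads in the knockdown-labelled libraries, and 395 and 4 in the control libraries (medians). Its partner had a median of 161 RNA reads in the knockdown-labelled library and 137.5 in the control library. That partner had 0 footprints in 89 of 173 pairs in the knockdown-labelled library and in 76 of 154 in the control library. A count of 0 allows up to 3 footprints.

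Among the 12 opposed pairs with the most RNA reads, PPIB with SNX22 came first. PPIB on chromosome 15 encodes cyclophilin B, a protein-folding enzyme of the endoplasmic reticulum, and overlaps SNX22, a sorting nexin gene, by 1670 bases tail to tail (hg19 spans 64448011 to 64455404 on the minus strand and 64443916 to 64449680 on the plus strand). PPIB had 9854 footprints in the knockdown-labelled library and 11324 in the control library, with 22 RNA reads in the knockdown-labelled and 8 in the control library. SNX22 had 0 footprints in both, with 11320 RNA reads in the knockdown-labelled and 9670 in the control library. PPIB thus held 0.194% of the pair's RNA reads (0.128 to 0.294) in the knockdown-labelled library and 0.0827% (0.0419 to 0.163) in the control library. Per length the picture was the same: PPIB had 2499 footprint RPKM and 0.590 RNA RPKM in the knockdown-labelled libraries, and SNX22 had 0 footprint RPKM and 100.3 RNA RPKM there.

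SQSTM1, the autophagy receptor p62, overlaps C5orf45 by 803 bases tail to tail on chromosome 5. SQSTM1 had 2757 footprints and 196 RNA reads in the knockdown-labelled libraries, and 3334 and 115 in the control libraries. C5orf45 had 0 footprints in both, with 6651 RNA reads in the knockdown-labelled and 5132 in the control library. PDIA6, a disulfide isomerase of the endoplasmic reticulum, overlaps ATP6V1C2, a gene of the vacuolar proton pump, by 45 bases on chromosome 2, which is 0.0728% of the ATP6V1C2 span. PDIA6 had 8669 footprints and 4 RNA reads in the knockdown-labelled libraries, and 10094 and 3 in the control libraries. ATP6V1C2 had 0 footprints in both, with 4537 RNA reads in the knockdown-labelled and 3790 in the control library. In this pair too, the footprints lay on PDIA6 and the RNA reads on ATP6V1C2, with few bases shared between the spans.

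ACTN4, an actin crosslinker, had 6553 footprints and 24 RNA reads in the knockdown-labelled libraries, and 7842 and 8 in the control libraries. Its partner CAPN12, a calpain protease gene, had 0 footprints in both, with 1567 RNA reads in the knockdown-labelled and 1710 in the control library. HSPG2, the basement membrane proteoglycan perlecan, had 3298 footprints and 16 RNA reads in the knockdown-labelled libraries, and 3602 and 3 in the control libraries. Its partner LDLRAD2 had 0 footprints in both, with 1233 RNA reads in the knockdown-labelled and 916 in the control library. The ACTN4 and HSPG2 pairs repeat the arrangement of PPIB, with all footprints on 1 gene and nearly all RNA reads on the other. ASPH with CLVS1 was also tail to tail and opposed. SRR, serine racemase, and TSR1, a factor of small ribosomal subunit maturation, were the least one-sided of the 12. TSR1 had 700 footprints and 245 RNA reads in the knockdown-labelled libraries, and 768 and 270 in the control libraries. SRR had 186 footprints and 768 RNA reads in the knockdown-labelled libraries, and 135 and 864 in the control libraries.

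Nested opposed pairs often paired a known gene with a row named after a genomic clone. BIRC5, the apoptosis inhibitor survivin, overlaps AC087645.1 over the whole 10279 bases of the clone-named row on chromosome 17. BIRC5 had 726 footprints and 0 RNA reads in the knockdown-labelled libraries, and 642 and 2 in the control libraries. AC087645.1 had 2291 RNA reads in the knockdown-labelled and 1828 in the control library, with 0 footprints in both. NUCKS1, a nuclear DNA-binding protein, had 1197 footprints and 13 RNA reads in the knockdown-labelled libraries, and 1670 and 7 in the control libraries. The row inside it, AC119673.1, had 3229 RNA reads in the knockdown-labelled and 3059 in the control library. MTPN with AC015987.2 and TRAM1 with AC120194.1 had the same arrangement.

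**Figure D2:**
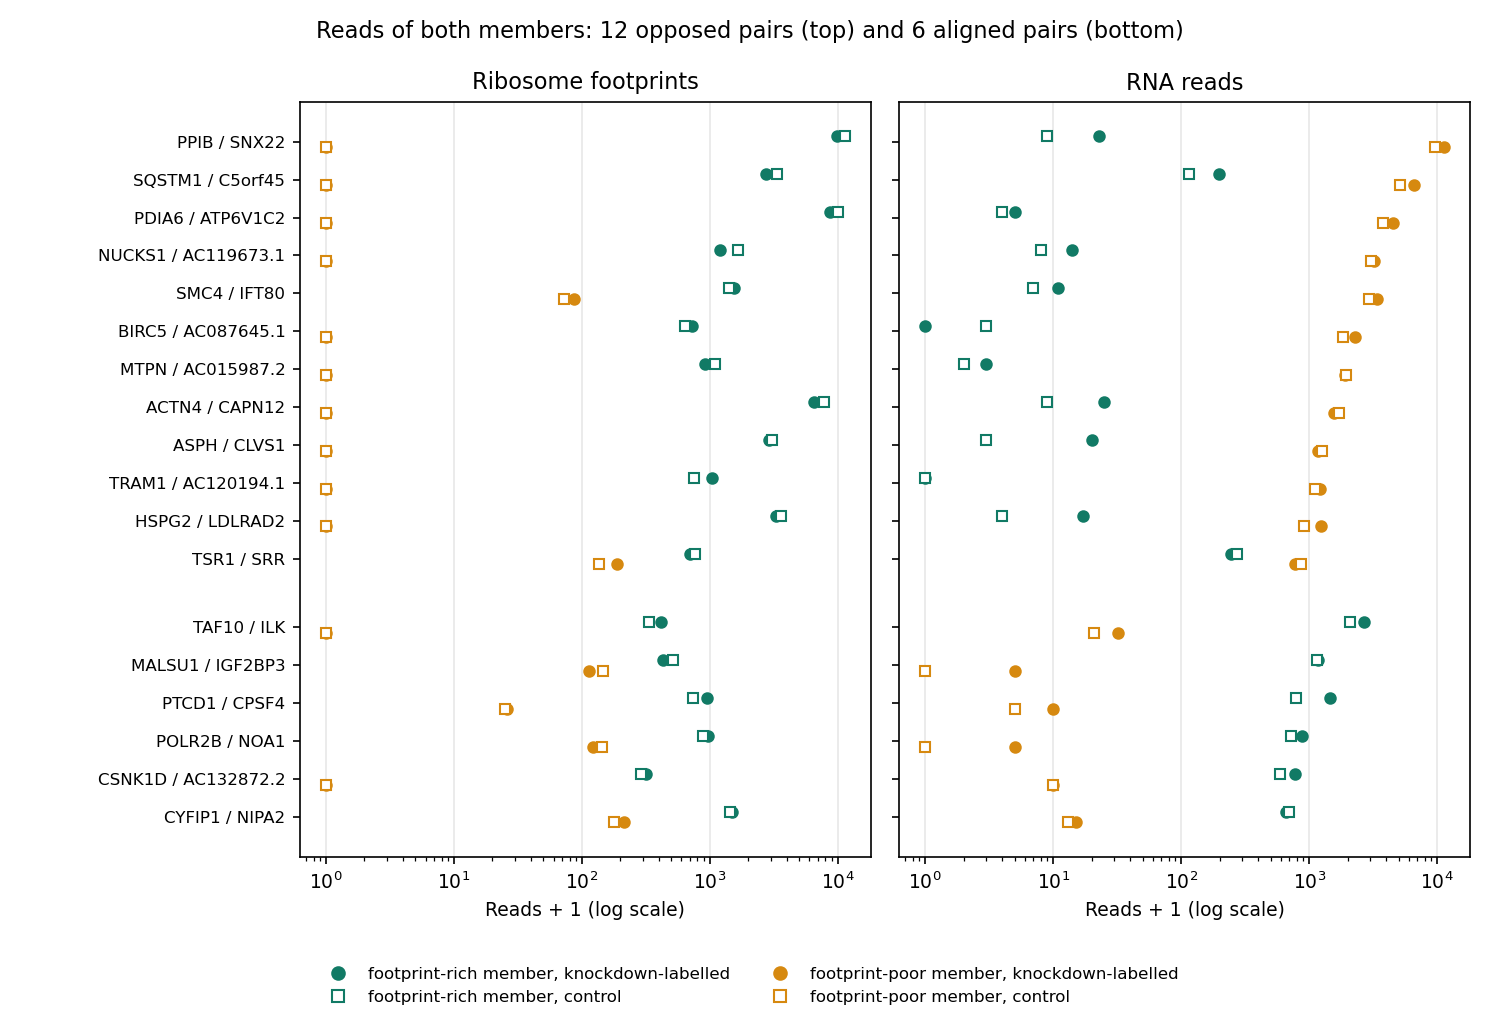
Reads plus 1 (log scale) of both members of the 12 opposed pairs (top) and the 6 aligned pairs (bottom) with the most RNA reads, footprints on the left and RNA on the right; green is the footprint-rich and orange the footprint-poor member, filled circles are knockdown-labelled and open squares control libraries. In opposed pairs the colours change sides between the panels, as for PPIB with 9854 footprints and 22 RNA reads in the knockdown-labelled libraries, and in aligned pairs they do not.

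In aligned pairs both assays favoured 1 gene, and the footprint-poor member had a median of 29 footprints in the knockdown-labelled and 28 in the control libraries, against 0 and 1 in opposed pairs. TAF10, a subunit of the general transcription factor TFIID, overlaps ILK, the integrin-linked kinase gene, by 29 bases tail to tail on chromosome 11. TAF10 had 415 footprints and 2665 RNA reads in the knockdown-labelled libraries, and 331 and 2094 in the control libraries. ILK had 0 footprints in both, with 31 RNA reads in the knockdown-labelled and 20 in the control library. TAF10 held 98.9% of the RNA reads of the pair in the knockdown-labelled library and 99.1% in the control library. MALSU1, a mitochondrial ribosome assembly factor, had 428 footprints and 1165 RNA reads in the knockdown-labelled libraries, and 510 and 1147 in the control libraries. Its partner IGF2BP3, an mRNA-binding protein, had 113 footprints and 4 RNA reads in the knockdown-labelled libraries, and 146 and 0 in the control libraries.

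POLR2B, the second-largest RNA polymerase II subunit, overlaps the mitochondrial GTPase gene NOA1 by 1082 bases head to head on chromosome 4. POLR2B had 957 footprints and 884 RNA reads in the knockdown-labelled libraries, and 880 and 716 in the control libraries. NOA1 had 121 footprints and 4 RNA reads in the knockdown-labelled libraries, and 142 and 0 in the control libraries. NOA1 thus had footprints while almost no RNA reads were assigned to it. POLR2B also overlaps IGFBP7, tail to tail at its other end. IGFBP7 had 2310 footprints and 208 RNA reads in the knockdown-labelled libraries, and 1961 and 214 in the control libraries. Against IGFBP7, POLR2B thus had fewer footprints and more RNA reads in both conditions. PTCD1 with the polyadenylation factor CPSF4, the kinase gene CSNK1D with AC132872.2, and CYFIP1, of the actin-regulating WAVE complex, with NIPA2 completed the 6 aligned pairs. In these 6 pairs the footprint-rich member held between 97.9% and 100% of the RNA reads in either condition.

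Some pairs did not fall to either side. KRR1, a factor of ribosome biogenesis, and GLIPR1 overlap by 6950 bases tail to tail and were mixed. GLIPR1 had 658 footprints and 532 RNA reads in the knockdown-labelled libraries, and 519 and 354 in the control libraries. KRR1 had 191 footprints and 515 RNA reads in the knockdown-labelled libraries, and 156 and 725 in the control libraries. ACAT2 and TCP1, a textbook tail-to-tail overlap picked here after the values were seen, had no footprint-rich member. ACAT2 had 978 footprints and 595 RNA reads in the knockdown-labelled libraries, and 830 and 474 in the control libraries, and TCP1, a subunit of the TRiC chaperonin, had 745 footprints and 895 RNA reads in the knockdown-labelled libraries, and 732 and 555 in the control libraries.

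The other textbook pairs described here were not classed. BEST1 overlaps FTH1, the ferritin heavy chain gene, by 1231 bases tail to tail on chromosome 11. BEST1 had 1 footprint and 69815 RNA reads in the knockdown-labelled libraries, and 4 and 44590 in the control libraries. FTH1 had 2 footprints and 100 RNA reads in the knockdown-labelled libraries, and 0 and 32 in the control libraries, and the pair was not classed because it lacked footprints. FTH1 has many near-identical pseudogene copies, so its own counts are uncertain. THRA with NR1D1 had no footprint-rich member, and NF1 with OMG and TIMP1 with SYN1 had too few reads in 1 of the assays.

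Tail-to-tail pairs were opposed more often and aligned less often than head-to-head pairs in these libraries. The opposed share was 59.0% of 178 tail-to-tail, 50.6% of 77 head-to-head and 65.9% of 44 nested pairs in the knockdown-labelled libraries. In the control libraries it was 63.4% of 164, 52.9% of 51 and 63.9% of 36 pairs in the same order. Aligned pairs made up 14.6% of tail-to-tail, 28.6% of head-to-head and 27.3% of nested pairs in the knockdown-labelled libraries, and 13.4%, 35.3% and 30.6% in the control libraries. Among tail-to-tail pairs sharing 1 to 99 bases, 60.0% of 30 were opposed in the knockdown-labelled libraries and 79.2% of 24 in the control libraries. Head-to-head pairs sharing 1 to 99 bases went the other way, with 2 of 11 opposed and 5 aligned in the knockdown-labelled libraries, and 1 of 8 opposed and 6 aligned in the control libraries. Head-to-head pairs sharing 1000 bases or more were opposed in 9 of 13 in the knockdown-labelled libraries and 7 of 10 in the control libraries. The differences between these classes were not tested, and the intervals of tail-to-tail and head-to-head opposed shares overlapped.

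For comparison, 2069 pairs of opposite-strand protein-coding neighbours lay at most 5000 bases apart without overlapping. Against 57.9% of overlapping pairs, 153 of 379 classed neighbours were opposed in the knockdown-labelled libraries (40.4%, 35.6 to 45.4). Against 61.4%, 131 of 273 were opposed in the control libraries (48%, 42.1 to 53.9). Aligned neighbours were 39.6% in the knockdown-labelled and 39.9% in the control libraries, against 20.1% and 20.3% of overlapping pairs. Overlapping pairs were thus aligned less often than neighbours in both conditions, and their opposed interval lay above that of the neighbours in both. These sets differ in arrangement, since neighbours cannot be nested. Among tail-to-tail pairs the opposed intervals stayed apart in the knockdown-labelled libraries (51.6 to 66.0 against 35.9 to 48.2). In the control libraries they overlapped (55.8 to 70.4 against 42.2 to 57.2). Those of head-to-head pairs overlapped in both conditions. A gene of a neighbour pair can overlap another gene, as TSR1, a neighbour of SGSM2, overlaps SRR. The 60 overlapping same-strand pairs gave few classed pairs, of which 5 of 12 (41.7%) were opposed in the knockdown-labelled and 5 of 11 (45.5%) in the control libraries.

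**Figure D3:**
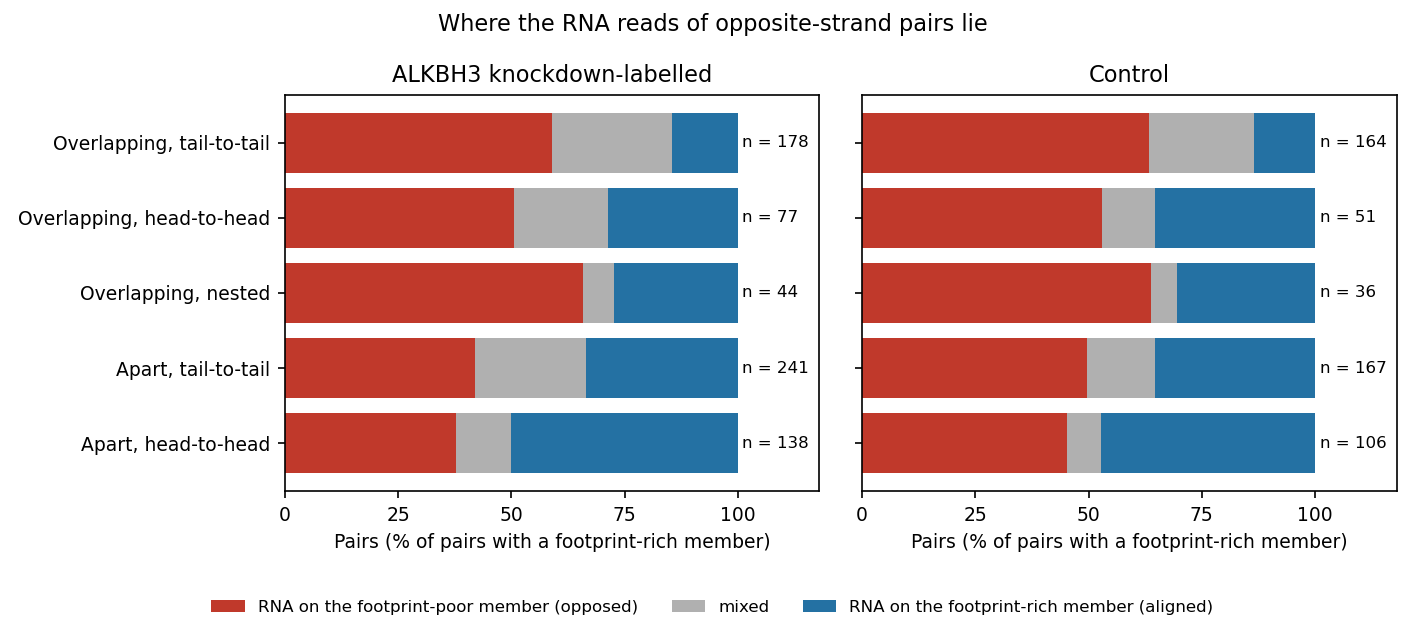
Share of pairs with a footprint-rich member (horizontal axis, %) that were opposed (red), mixed (grey) or aligned (blue), by arrangement, with the number of pairs at the right of each bar; knockdown-labelled libraries on the left and control libraries on the right. Overlapping tail-to-tail pairs have the smallest aligned share, 14.6% in the knockdown-labelled and 13.4% in the control libraries.

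Across all 1760 paired genes, RNA reads had a higher rank correlation with the footprints of the partner than with a gene's own. Spearman's rho of RNA reads with the partner's footprints was 0.36 in both the knockdown-labelled and the control libraries, while with a gene's own footprints it was 0.05 in the knockdown-labelled and -0.003 in the control libraries. In 841 tail-to-tail members with 1 partner, rho with the partner's footprints was 0.49 in both conditions, and with their own it was 0.02 in the knockdown-labelled and -0.02 in the control libraries. In 489 head-to-head members it was 0.21 with the partner's and 0.18 with their own footprints in the knockdown-labelled libraries, and 0.19 and 0.14 in the control libraries. In 348 nested members it was 0.24 with the partner's and -0.11 with their own footprints in the knockdown-labelled libraries, and 0.33 and -0.22 in the control libraries. The 10568 protein-coding rows with no opposite-strand overlap had a rho of RNA with their own footprints of 0.25 in the knockdown-labelled and 0.18 in the control libraries. Where both members had at least 10 footprints, the partner rho was 0.11 and the own rho 0.08 over 700 genes in the knockdown-labelled libraries, and 0.15 and 0.07 over 695 genes in the control libraries, so the gap between them was small in this subset. These are correlations across genes that share libraries, and genes are not replicates.

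**Figure D4:**
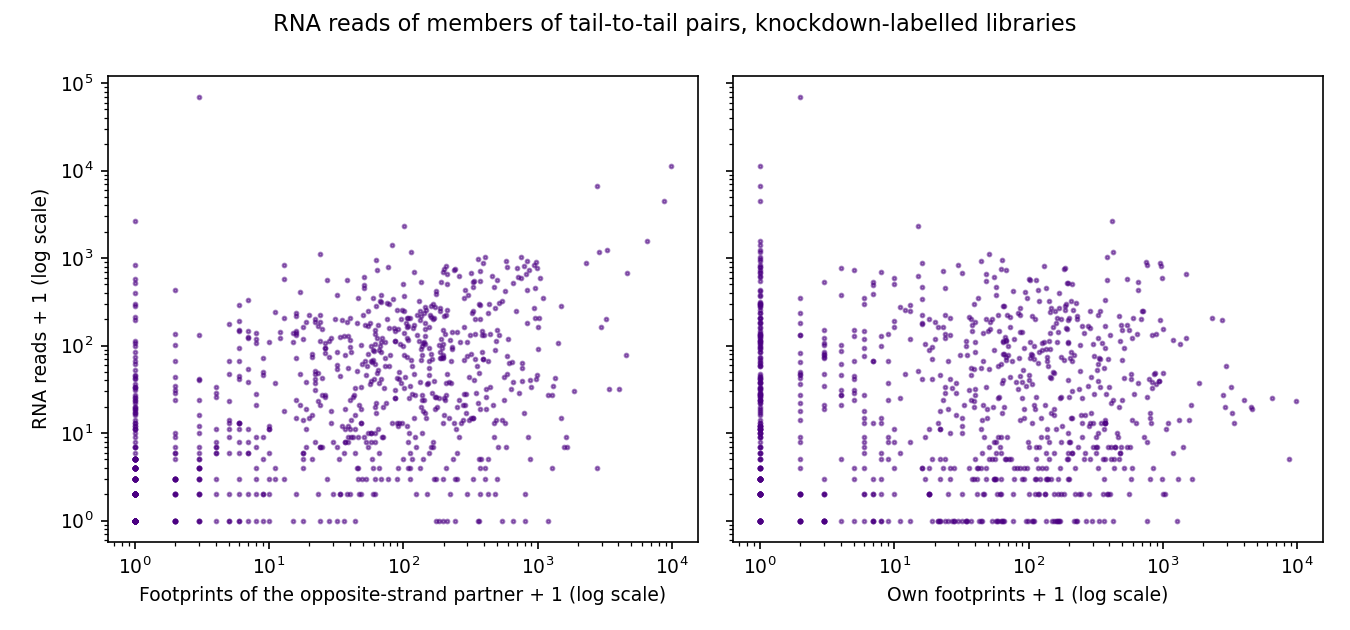
RNA reads plus 1 of members of tail-to-tail pairs in the knockdown-labelled libraries (vertical axis, log scale) against the partner's footprints plus 1 (left) and the gene's own footprints plus 1 (right), both log scale, 1 point per member and pair. RNA reads climb with the partner's footprints (rho 0.49 over 841 members with 1 partner) and show no such slope with a gene's own (rho 0.02).

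The authors' deposited table of translational efficiency holds the ratio of footprint RPKM to RNA RPKM from these same libraries. It restates the arrangement of several opposed pairs and is no separate support for it. In the authors' deposited table PPIB stands at 4234 in the knockdown-labelled and 9130 in the control condition, and PDIA6 at 17734 in the knockdown-labelled and 22577 in the control condition. SNX22, ATP6V1C2 and C5orf45 are listed at 0 in both conditions of the authors' deposited table. IFT80 stands at 0.439 in the knockdown-labelled and 0.324 in the control condition of the authors' deposited table, and its partner SMC4 at 2056 in the knockdown-labelled and 2272 in the control condition. Among paired genes, 177 exceed 1000 in the knockdown-labelled and 154 in the control condition of the authors' deposited table, and 622 and 783 are listed at 0. A listed 0 can stand for a gene without footprints or for a gene without RNA reads, so these counts mix both. TRAM1, with 1039 footprints in the knockdown-labelled and 749 in the control library but no RNA reads, is listed at 0 in both conditions. The matching counts over all genes are not given here. The divisor is the gene's own RNA RPKM, which was small for the footprint-rich members of opposed pairs, such as the 0.590 of PPIB in the knockdown-labelled library.

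Between conditions, few paired genes differed by 2-fold or more in footprints. A gene was called where its log2 ratio of knockdown-labelled over control was at least 2-fold with a 95% counting interval leaving out 0, among genes with at least 100 reads over both libraries. Of 824 paired genes tested, 2 were higher (0.243%) against 0.879% of all 7050 genes tested, and 7 were lower (0.850%) against 0.426%. The split of 2 higher and 7 lower was 4 and 5 without TMM scaling of the totals, and 5 and 3 on the deposited RPKM. Without the 2-fold minimum, 132 of the 824 intervals lay above 0 and 199 below, against 1282 and 1575 of 7050 over all genes. The median log2 ratio was -0.06 in paired genes and -0.02 in all genes. The 2 higher genes were PCK2 and NHSL1. PCK2, the mitochondrial phosphoenolpyruvate carboxykinase, had 328 footprints in the knockdown-labelled library and 137 in the control library, a log2 ratio of 1.21 (0.92 to 1.497). NHSL1 had 92 footprints in the knockdown-labelled library and 29 in the control library, a log2 ratio of 1.60 (1.004 to 2.20). Their partners did not pass: HEBP2, opposite NHSL1, had 369 footprints in the knockdown-labelled library and 267 in the control library, and NRL, a photoreceptor transcription factor gene opposite PCK2, had 0 in both. WARS, the cytosolic tryptophanyl-tRNA synthetase, stood just under the call with 1273 footprints in the knockdown-labelled and 617 in the control library (0.998, 0.86 to 1.14).

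The 7 lower genes were C1orf122, XRCC3, HDGFRP2, RPL18, ICMT, C11orf48 and ACADVL. C1orf122 had 36 footprints in the knockdown-labelled library and 116 in the control library, a log2 ratio of -1.72 (-2.26 to -1.18), while YRDC, the tRNA-modifying enzyme gene it faces head to head, had 331 in the knockdown-labelled and 333 in the control library. XRCC3, a gene of recombinational DNA repair, had 36 footprints in the knockdown-labelled library and 85 in the control library, a log2 ratio of -1.27 (-1.83 to -0.72). KLC1, the kinesin light chain gene opposite XRCC3, had 768 footprints in the knockdown-labelled and 899 in the control library (-0.27, -0.41 to -0.13). RPL18, a large ribosomal subunit protein, had 399 footprints in the knockdown-labelled library and 830 in the control library, a log2 ratio of -1.10 (-1.27 to -0.93). YRDC and KLC1 were tested and not called. SPHK2, opposite RPL18, had 21 footprints in the knockdown-labelled and 18 in the control library, too few to be tested. AL049840.1, the other partner of XRCC3, had 0 in both and was not tested either. Of ICMT, an enzyme that methylates prenylated proteins, 71 footprints were counted in the knockdown-labelled and 145 in the control library. ACADVL, of mitochondrial long-chain fatty acid oxidation, had 62 and C11orf48 had 93 in the knockdown-labelled library, against 123 and 187 in the control library. RPL18, ICMT, C11orf48 and ACADVL fell just short of 2-fold on the deposited RPKM, and C11orf48 and ACADVL also without TMM scaling. TPI1, a glycolytic enzyme, had the most footprints of the members furthest below 0, with 4048 in the knockdown-labelled and 6624 in the control library, and its log2 ratio of -0.76 (-0.81 to -0.70) did not reach 2-fold.

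**Figure D5:**
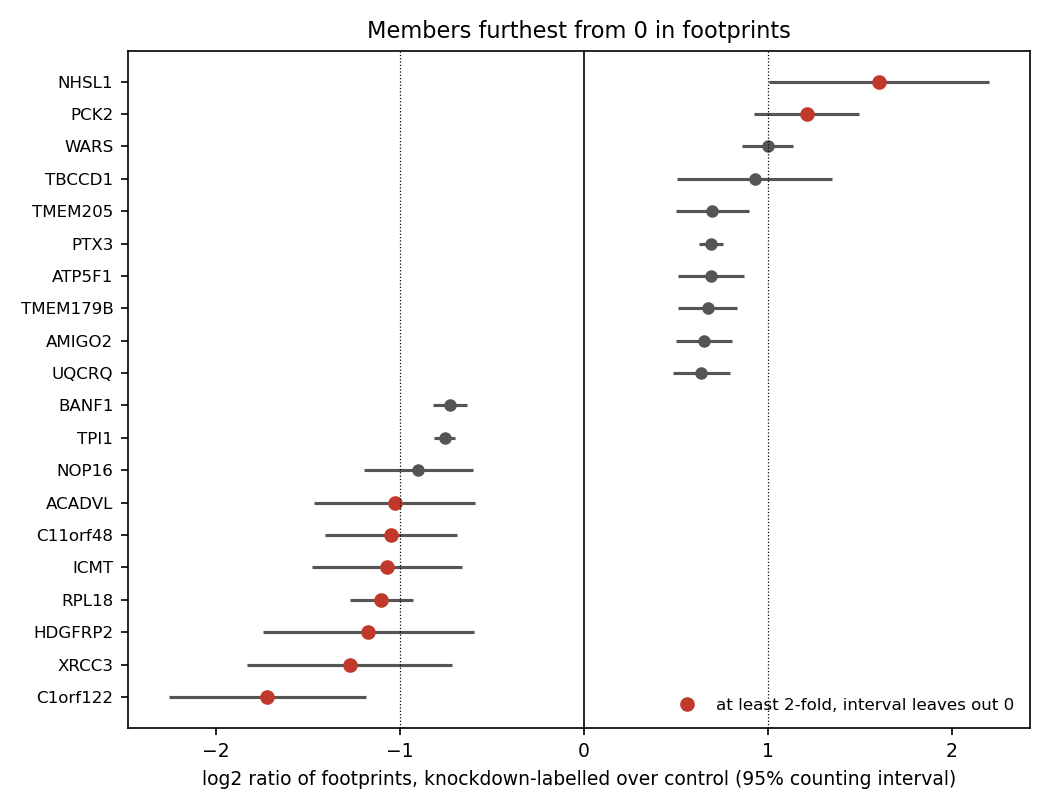
log2 ratio of footprints, knockdown-labelled over control (horizontal axis, with 95% counting intervals), of paired genes, 10 per direction, ranked by whichever interval bound lies closer to 0. Red points are called genes, which run from C1orf122 at -1.72 to NHSL1 at 1.60, and dotted lines mark 2-fold.

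The footprint differences of partners were then set side by side. Both members were tested in 200 pairs, and 109 of these had log2 ratios of the same sign, 56 of 86 head-to-head pairs, 51 of 108 tail-to-tail pairs and 2 of 6 nested pairs. Spearman's rho between the log2 ratios of both members was 0.04 over these 200 pairs, given as a description. In 5 of these pairs a member was called, and in 0 were both. Matching counts for neighbouring pairs are not given here, so these counts are not set against a background.

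In RNA, 416 paired genes had enough reads, of which 4 were higher (0.962%) against 2.9% of all 1311 genes tested, and 5 were lower (1.20%) against 1.3%. The 1311 include the 416 paired genes and rows that are not protein-coding. Of 317 other protein-coding genes tested, 26 were higher (8.20%) and 3 lower (0.946%). The median log2 ratio was -0.19 in paired genes, -0.13 over all genes tested and -0.009 in the other protein-coding genes. The split of paired genes depended on the scaling: without TMM factors 7 were higher and 0 lower, on the deposited RPKM 4 were higher and 0 lower, and with DESeq2 size factors 2 were higher and 10 lower. The 4 higher genes were FTH1, RPS25, ACIN1 and AL049829.1. ACIN1, a nuclear protein of RNA splicing complexes, had 109 RNA reads in the knockdown-labelled and 39 in the control library, a log2 ratio of 1.03 (0.51 to 1.56). RPS25, a small ribosomal subunit protein, had 96 RNA reads in the knockdown-labelled and 33 in the control library, a log2 ratio of 1.09 (0.52 to 1.66). The 5 lower genes were STAB1, PMCH, TXNDC17, DHX32 and NPC1. STAB1, a scavenger receptor gene, had 113 RNA reads in the knockdown-labelled and 181 in the control library, a log2 ratio of -1.12 (-1.45 to -0.78), with 0 footprints in the knockdown-labelled and 1 in the control library. NPC1, the cholesterol transporter of lysosomes, had 58 RNA reads in the knockdown-labelled and 87 in the control library, a log2 ratio of -1.02 (-1.496 to -0.54), while its footprints were 2969 in the knockdown-labelled and 2613 in the control library. Among pairs opposed in both conditions, 110 footprint-poor members were tested in RNA, with a median log2 ratio of -0.15. RNA log2 ratios had a rho of -0.06 with the gene's own footprint log2 ratios over 197 genes and of 0.005 with the partner's over 307. The partner relation seen in levels over all 1760 genes was not seen in these differences between conditions. The sets are unlike, since the differences needed at least 100 reads in each assay used. With at least 10 footprints in both members, the partner rho in levels was 0.11 in the knockdown-labelled and 0.15 in the control libraries.

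The log2 ratio of footprints over RNA needs enough reads in both assays, which 197 paired genes had. Of these, 12 were higher (6.09%) against 6.3% of all 381 genes tested, and 3 were lower (1.52%) against 9.97%. The 381 include the 197 paired genes. Of the 184 other protein-coding genes tested, 12 were higher (6.52%) and 35 lower (19.0%). The median was 0.15 in paired genes, 0.04 in all genes tested and -0.08 in the other protein-coding genes. The balance in paired genes turned with lower minimum reads: 24 were higher and 55 lower of 476 at 20 reads, and 34 higher and 72 lower of 1225 at 1 read. Without TMM scaling 9 were higher and 4 lower, and SRR was no longer called, nor was NPC1 on the deposited RPKM. The lower share was below that of all genes tested, and this difference was not tested. The 12 higher genes were FBXO11, KRR1, PPAP2A, NPC1, DHX32, MAK16, FCHSD1, TBPL1, CENPU, CPT2, SRR and MIF4GD. FBXO11, a substrate receptor of a ubiquitin ligase, had 369 footprints and 167 RNA reads in the knockdown-labelled libraries, and 236 and 197 in the control libraries, a log2 ratio of 1.27 (0.89 to 1.65). KRR1 had a log2 ratio of 1.18 (0.83 to 1.52). The 3 lower genes were FTSJ3, C11orf48 and ACIN1. FTSJ3, an rRNA methyltransferase, had 300 footprints and 252 RNA reads in the knockdown-labelled libraries, and 376 and 96 in the control libraries, a log2 ratio of -1.32 (-1.72 to -0.92). The uncertainty of which member an RNA read came from applies to this quantity as well.

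Each count of intervals in the gene lists stands beside the 1282 above 0 and 1575 below 0 of all 7050 genes tested in footprints, and each paired median beside that of the whole list. None of the gene lists held more than 1 called member in either direction in footprints. DNA repair genes were often paired, 27 of 108 listed (25%), as were RNA polymerase subunits with 7 of 27 (25.9%), against 12.6% of protein-coding rows, while only 20 of 430 zinc-finger genes (4.65%) were paired. Of the 19 paired DNA repair genes tested, 4 had intervals above 0 and 3 below, with a median log2 ratio of 0.00 (-0.05 over the 71 listed genes tested), and XRCC3 was the called gene. RAD54L, a recombination motor protein, had a log2 ratio of -0.44 (-0.75 to -0.12). Of 11 paired splicing factors tested, 1 interval lay above 0 and 7 below, with a median of -0.22 (-0.08 over the 71 listed genes tested). PRPF6, a tri-snRNP protein, had 1185 footprints in the knockdown-labelled and 1486 in the control library (-0.37, -0.48 to -0.26). BUD31 had 516 in the knockdown-labelled and 381 in the control library (0.39, 0.20 to 0.58). Of 6 paired DNA replication genes, 1 interval lay above 0 and 5 below, with a median of -0.32 (-0.24 over the 48 listed genes tested), and MCM7, of the replicative helicase, had 1124 footprints in the knockdown-labelled and 1443 in the control library (-0.41, -0.52 to -0.29).

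Among 12 paired respiratory chain genes tested, 5 intervals lay above 0 and 2 below, with a median of 0.03 (-0.03 over the 69 listed genes tested). ATP5F1, of ATP synthase, had 662 footprints in the knockdown-labelled and 397 in the control library (0.69, 0.51 to 0.87), and UQCRQ, of complex III, had 854 in the knockdown-labelled and 531 in the control library (0.64, 0.48 to 0.79). NDUFB6, of complex I, had 832 in the knockdown-labelled and 1138 in the control library (-0.50, -0.63 to -0.37). Of 12 paired TMEM genes tested, 7 intervals lay above 0 and 1 below, with a median of 0.31 (0.17 over the 83 listed genes tested). TMEM205 had 546 footprints in the knockdown-labelled and 326 in the control library (0.70, 0.50 to 0.89). Of 5 paired cytosolic ribosomal protein genes tested, 0 intervals lay above 0 and 3 below, with a median of -0.32, close to the -0.28 of the 51 listed ribosomal protein genes tested. RPL31 had 578 footprints in the knockdown-labelled and 850 in the control library (-0.60, -0.76 to -0.45). Of 9 paired mitochondrial ribosomal protein genes, 0 intervals lay above 0 and 3 below, with a median of -0.10, as over the 56 listed genes tested. Of 9 paired translation initiation factors, 2 lay above 0 and 3 below, with a median of -0.04 (-0.09 over the 40 listed genes tested), and EIF5B, which joins the ribosomal subunits, had 642 footprints in the knockdown-labelled and 807 in the control library (-0.38, -0.53 to -0.23). Of 4 paired ATF4 target genes tested, 2 intervals lay above 0 and 0 below, with a median of 0.52 (0.85 over the 38 listed genes tested), and the called gene was PCK2.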

How the data were processed

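The 4 libraries were grouped by genotype label, and their titles gave the assay. Reads were processed with FastQC, cutadapt, Bowtie and STAR on hg19, per the submitters' processing notes. The authors deposited whole-number read counts per gene, RPKM values per gene, and a ratio of footprint RPKM to RNA RPKM, per the file headers. The counter, its strand setting and the treatment of reads that map to several genes are not given in the sources used here. Reads per RPKM had medians of 7.36 and 7.72 in the footprint libraries, but 73.8 and 56.9 in the RNA libraries (knockdown-labelled, then control), so RNA and footprint RPKM are on different scales. Gene identifiers matched the current name table for 16248 rows.

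Pairs were found from the deposited spans. Of the paired genes, 153 also overlap another opposite-strand row that is not protein-coding. From the counts, log2 ratios used library totals times the TMM factors of edgeR 4.0.16 (R 4.3.3) and a prior count of 0.5, and intervals came from the counting error of the counts. DESeq2 1.42.0 gave size factors for an alternative only. With 1 library per group no model with residual spread can be fitted, so no p-values are given. Shares have Wilson 95% intervals, over reads for shares of reads and over pairs for shares of pairs. The steps were tested on simulated data. Alternatives changed the share that makes a member footprint-rich, the minimum reads, the unit, the pairs kept, the scaling, the prior count and the minimum fold.

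The genes and gene lists were chosen with earlier results of these data known. Named are the 12 opposed and 6 aligned pairs with the most RNA reads, the members furthest from 0 on either side, ranked by the closer interval bound (10 in footprints, 6 in RNA and 6 in footprints over RNA), a set of textbook pairs, up to 3 members of each gene list, and genes named in an earlier account. All called genes are also named. Some genes that this rule names are not reported here. The start windows are RefSeq sequence of GRCh38.p14, and their coordinates were not set against the hg19 spans.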

Additional observations from a re-analysis of the deposited data

How the results depend on the processing

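Each group holds 1 library, so leaving out a replicate could not be run. No paired analysis was possible because each group holds 1 library.

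The opposed share of 57.9% in the knockdown-labelled libraries was 65.2% with a member called footprint-rich at 50% and 49.8% at 90%; in the control libraries it was 67.9% at 50%. The aligned share was 34.8% at 50%, 8.60% at 90% and 15.4% in RPKM in the knockdown-labelled libraries, and 32.1%, 8.99% and 14.3% in the control libraries. Without the BEST1 and FTH1 pair and pairs with a clone-named member, an alternative chosen after seeing the data, the opposed share was 54.0% in the knockdown-labelled and 57.4% in the control libraries. In RPKM the rho of RNA with own footprints was -0.0080 in the knockdown-labelled libraries, the other sign, and with the partner's it was 0.407. With at least 10 footprints in both members, rho with own footprints was 0.075 in the knockdown-labelled libraries, and with the partner's footprints it was 0.109 in the knockdown-labelled and 0.148 in the control libraries, and with own footprints in the control libraries 0.069, the other sign. No rho between log2 ratios moved by more than its limit.

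Paired genes higher in footprints numbered 4 without TMM, 5 in RPKM, 15 with 20 reads, 21 with 1 read and 26 at 1.5-fold. Lower ones numbered 3 in RPKM, 18 with 20 reads, 23 with 1 read and 44 at 1.5-fold. In RNA, higher ones numbered 7 without TMM, 2 with DESeq2 size factors, 2 with a prior count of 5, 37 with 20 reads, 48 with 1 read and 16 at 1.5-fold, and lower ones 0 without TMM, 0 in RPKM, 10 with size factors, 16 with 20 reads, 22 with 1 read and 59 at 1.5-fold. In footprints over RNA, 24 were higher and 55 lower with 20 reads and 34 and 72 with 1 read, where lower ones outnumber higher ones, and 41 and 18 at 1.5-fold. Lower minimum reads admit more genes with few counts. The matching counts over all genes under these alternatives are not given here. The median log2 ratio of all genes tested in RNA was -0.13, 0.00 without TMM and -0.24 with size factors, and in footprints -0.02, and 0.10 in RPKM. Of the named genes, DHX16 turned from a footprint log2 ratio of -0.04 to 0.023 without TMM and 0.075 in RPKM. Of the other values of named genes, 17 lost the call, 12 gained it and 261 kept direction and call. The causes of these differences were not tested. The shallow RNA libraries limit the pair classes to pairs with at least 20 RNA reads.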

Other observations

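Tail-to-tail neighbours less than 1000 bases apart were opposed in 52 of 114 classed pairs (45.6%) in the knockdown-labelled and 43 of 78 (55.1%) in the control libraries. Those 1000 to 5000 bases apart were opposed in 49 of 127 (38.6%) in the knockdown-labelled and 40 of 89 (44.9%) in the control libraries. Head-to-head neighbours less than 1000 bases apart were opposed in 37.6% and aligned in 49.5% in the knockdown-labelled libraries, and in 45.5% and 48.1% in the control libraries.

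Close to the edge of the rule, PRPF39, a splicing factor, and FKBP3, a prolyl isomerase, shared 2 bases. PRPF39 had 15 footprints and 886 RNA reads in the knockdown-labelled libraries, and 10 and 629 in the control libraries. FKBP3 had 388 footprints and 1 RNA read in the knockdown-labelled libraries, and 449 and 1 in the control libraries. ZYX, the focal adhesion protein zyxin, had 1418 footprints and 3 RNA reads in the knockdown-labelled libraries, and 1628 and 4 in the control libraries. EPHA1, which abuts it without a shared base, had 0 footprints and 151 RNA reads in the knockdown-labelled libraries, and 2 and 93 in the control libraries.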
